A study of Mus musculus with 24 samples.

Results

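The comparison asked how the transcriptional response of midbrain cultures to low oxygen differed between 13 d and 48 h of culture. For every probe set with a gene symbol, the response at 13 d (3% O2 minus 21% O2) was set against the same response at 48 h, and the 48 h response was subtracted from the 13 d response. The 12 arrays from midbrain were used, of 24 in the series, with 3 arrays in each of 4 groups. The groups were 13 d in 3% O2, 13 d in 21% O2, 48 h in 3% O2 and 48 h in 21% O2. All were primary cultures of the mesencephalon (the embryonic midbrain) of C57Bl/6 mouse embryos at embryonic day 14, grown in expansion medium, which favours dividing neural stem cells over their differentiated progeny. The low-oxygen gas held 92% N2, 5% CO2 and 3% O2, and 21% O2 is the level of room air. Such cultures are mixtures, and RNA of whole wells was measured, so fewer cells of a type and less RNA per cell cannot be told apart. The series also holds cortex cultures of the same design, which entered the estimate of the spread only.

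Cells sense oxygen through prolyl hydroxylases, which in the presence of oxygen mark the alpha subunits of the hypoxia-inducible factors (HIF) for destruction through the VHL protein. At low oxygen the subunits persist, pair with ARNT and bind short DNA motifs near genes for glucose uptake, glycolysis, angiogenesis and pH control. In the embryonic midbrain, low oxygen is known to favour the growth of neural progenitors and is used to expand them in culture.

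Values below are normalized log2 expression levels, and responses and their differences are on the same scale, given ± the standard error of the fit, with n = 3 arrays in each group. A gene is said to have risen, fallen or changed only where limma's Benjamini-Hochberg adjusted p over 23410 probe sets was under 0.05. Arrays of a midbrain group correlated with r between 0.994 and 0.999, and array medians lay between 7.36 and 7.42. Whether the 3 arrays of a group stand for independent cultures is not stated in the labels. The p-values therefore reflect the scatter of these arrays, which may be technical, and groups of 3 limit how precise any value is. The 13 d arrays formed one array run and the 48 h arrays another, so for levels the run and the time cannot be told apart and no level was tested between times. An offset of a run that is equal at both oxygen levels cancels in the difference of responses.

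Of the region genes looked at, Tbr1 separated midbrain from cortex by a narrow gap and the others did not. En1, a midbrain-hindbrain transcription factor, lay between 8.81 and 9.49 in the 12 midbrain arrays, against 6.74 to 8.86 in the 12 cortex arrays, so the ranges overlapped. En2 and Otx2 overlapped too. En2 lay between 8.82 and 10.09 in midbrain, against 5.93 to 9.13 in cortex, and Otx2 between 10.04 and 11.78, against 8.56 to 10.61. Tbr1, a transcription factor of cortical neurons, lay between 6.02 and 6.22 in midbrain, against 6.35 to 11.50 in cortex. Emx1 and Emx2, transcription factors of the developing cortex, did not separate the regions, with 7.51 to 7.91 in midbrain against 7.55 to 8.07 in cortex for Emx1, and 6.29 to 9.45 in midbrain against 6.86 to 9.21 in cortex for Emx2. All 6 midbrain arrays of 48 h had Emx2 at 9.13 or above. The labelled times of the 2 regions ran against each other. The cortex group labelled 48 h in 3% O2 correlated with the midbrain 13 d group in 3% O2 at r = 0.990 and with the midbrain 48 h group in 3% O2 at r = 0.917. The cortex group labelled 13 d in 3% O2 correlated with these midbrain groups at 0.949 and 0.973. Which region's times go against the labels, if any, cannot be read from the files, and an exchange of the midbrain times would turn the sign of each difference of responses. Times are given as labelled.

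The midbrain response was wider at 13 d than at 48 h. Of the 23410 probe sets, 1606 (6.86%) had a more positive response at 13 d and 1930 (8.24%) a more negative one, 15.1% in all. At 13 d, 2614 (11.2%) rose and 2970 (12.7%) fell in 3% O2, 23.9% in all. At 48 h, 164 (0.701%) rose and 115 (0.491%) fell, 1.19% in all. These shares of all probe sets are the background for the counts of the gene lists below. At 1.19%, a short list with 0 calls at 48 h is usual, and the 0 is no trait of that list. The SD of the responses over all probe sets was 0.309 at 13 d and 0.134 at 48 h, while the median standard error was the same for both by construction of the fit, 0.0773. Responses above 1 were seen for 285 probe sets at 13 d and 18 at 48 h, and responses below -1 for 134 at 13 d and 0 at 48 h. The total of 279 at 48 h moved with single arrays and was 149 without replicate 1 and 141 without replicate 2 of the 48 h 3% group, and 179 without replicate 3 of the 48 h 21% group.

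Most of the difference was made of genes that passed the threshold at 13 d alone. Of the 1606 probe sets with a more positive response at 13 d, 1392 were called at 13 d and not at 48 h, 46 at 48 h only, 5 at both times in the same direction, 13 in opposite directions and 150 at neither. The 1930 with a more negative response divided in the same way into 1640, 74, 2, 16 and 198. The mean level at 48 h was below that of the median probe set for 29.7% of the more positive and 20.6% of the more negative calls, so most of these genes had a level above the median at 48 h too. Of the 164 probe sets that rose at 48 h, 42 also rose at 13 d, 16 fell and 106 passed in neither direction, and the difference was more negative for 92 and more positive for 5. Of the 115 that fell at 48 h, 19 fell and 13 rose at 13 d, and the difference was more positive for 59. These probe sets were chosen by their 48 h response, which is subtracted in the difference. The choice itself therefore favours these directions of the difference. Over all probe sets 11.2% rose and 12.7% fell at 13 d. The 16 and 13 opposite calls were near or below those shares, and the 42 and 19 calls in the same direction were above them.

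**Figure D1:**
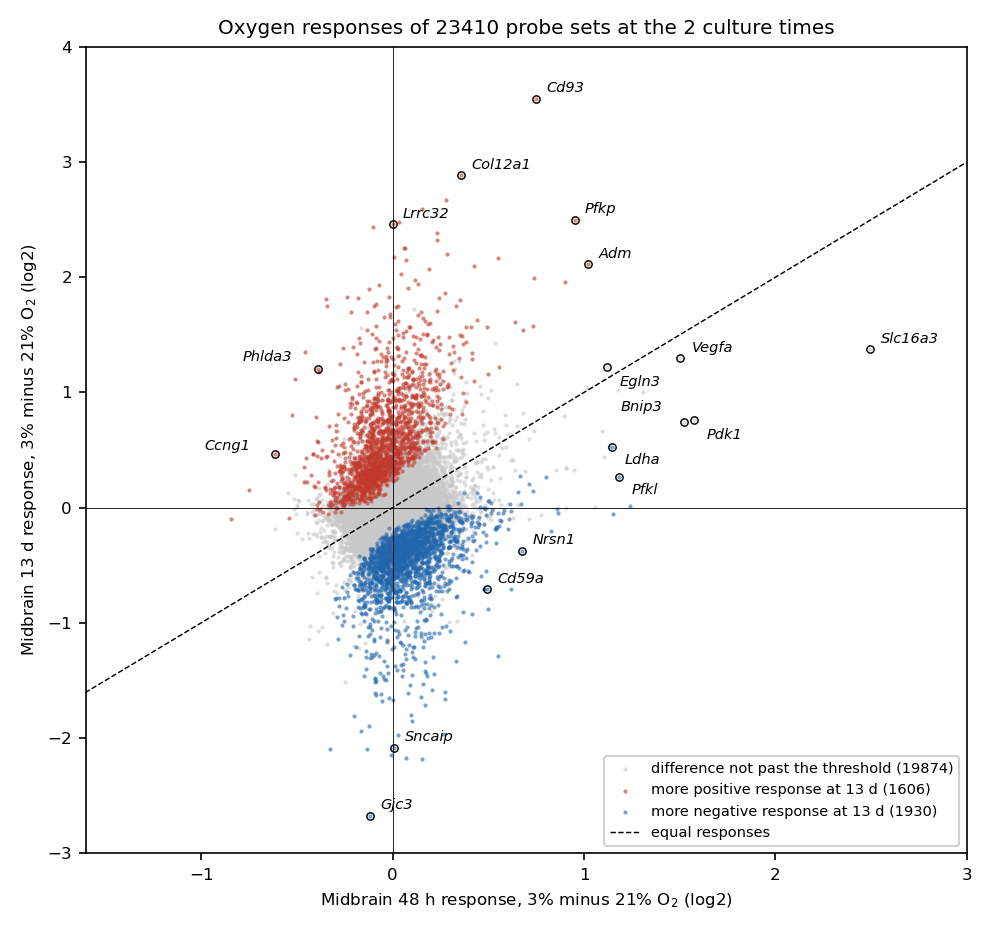
Oxygen response (3% minus 21% O2, log2) of each of 23410 probe sets at 13 d (vertical axis) against 48 h (horizontal axis), with the line of equal responses; red points had a more positive response at 13 d (1606), blue points a more negative one (1930), and grey points did not pass the threshold (19874). Points spread along the vertical axis, while Slc16a3, Pdk1 and Ldha lie below the line of equal responses and Pfkp and Adm above it.

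Genes of glucose use had called differences in both directions. Of 20 measured genes of glycolysis and glucose uptake, 13 rose and 0 fell at 13 d, and 11 rose and 0 fell at 48 h. The median response of the list was 0.48 at 13 d and 0.70 at 48 h, beside medians of -0.01 and -0.02 over all probe sets. The difference of responses was more positive for 4 genes (Pfkp, Slc2a3, Pfkfb3 and Slc16a1) and more negative for 3 (Ldha, Pfkl and Aldoa), and its list median was -0.08 beside 0.01 for all probe sets. The total of 7 fell to between 3 and 4 when any of 6 arrays was left out, namely replicate 3 of 48 h 3%, replicate 2 of 48 h 21%, replicates 1 and 3 of 13 d 3%, and replicates 1 and 2 of 13 d 21%. The list mean of the 48 h 3% arrays varied more than that of the other groups, with 11.61 ± 0.07 and 10.89 ± 0.07 at 13 d and 10.58 ± 0.31 and 9.83 ± 0.11 at 48 h (3% and then 21% O2 at each time, SD, n = 3).

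The windows around the start sites of 4 hypoxia genes are shown. All 4 rose at both times, and their estimated responses differed in size. Slc16a3 and Ldha had the larger estimated response at 48 h, and Pfkp and Adm the larger one at 13 d. For Slc16a3 the difference did not pass. Each window holds 300 bases around the RefSeq start in assembly GRCm38.p6, most of them before it, and is printed 5′ to 3′ on the strand of the gene. Capitals mark ACGTG and its variant with G first, GCGTG, the short cores bound by HIF, as well as the reverse complements CACGT and, for the variant, CACGC. The palindrome CACGTG holds a match on each strand. The positions are chr11:120948817-120949116 (plus strand) for Slc16a3, chr7:46845554-46845853 (plus strand) for Ldha, the first listed of 2 windows, chr13:6648722-6649021 (minus strand) for Pfkp and chr7:110627407-110627706 (plus strand) for Adm.
Slc16a3: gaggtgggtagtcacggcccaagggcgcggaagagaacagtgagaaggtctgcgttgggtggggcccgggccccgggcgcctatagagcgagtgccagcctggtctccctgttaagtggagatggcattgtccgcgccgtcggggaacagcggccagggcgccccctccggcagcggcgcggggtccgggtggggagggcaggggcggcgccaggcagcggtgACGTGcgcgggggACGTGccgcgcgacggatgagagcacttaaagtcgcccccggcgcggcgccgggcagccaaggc
Ldha: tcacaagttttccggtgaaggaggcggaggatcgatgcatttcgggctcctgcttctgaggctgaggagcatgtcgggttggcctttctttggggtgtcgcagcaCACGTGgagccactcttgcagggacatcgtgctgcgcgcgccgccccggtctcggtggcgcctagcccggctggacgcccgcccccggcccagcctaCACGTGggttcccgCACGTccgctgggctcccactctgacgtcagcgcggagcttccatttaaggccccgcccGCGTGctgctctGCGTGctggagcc
Pfkp: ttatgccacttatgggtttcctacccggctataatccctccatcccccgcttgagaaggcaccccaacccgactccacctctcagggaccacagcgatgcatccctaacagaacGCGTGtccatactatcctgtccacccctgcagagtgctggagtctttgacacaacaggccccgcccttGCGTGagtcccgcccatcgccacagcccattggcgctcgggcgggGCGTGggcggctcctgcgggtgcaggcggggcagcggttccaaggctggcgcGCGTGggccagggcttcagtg
Adm: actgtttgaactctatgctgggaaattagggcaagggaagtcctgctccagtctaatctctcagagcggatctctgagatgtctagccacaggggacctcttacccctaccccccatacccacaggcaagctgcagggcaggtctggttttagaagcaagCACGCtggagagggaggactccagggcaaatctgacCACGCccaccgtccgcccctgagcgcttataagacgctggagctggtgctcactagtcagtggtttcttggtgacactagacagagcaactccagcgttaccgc
The Slc16a3 window held 2 copies of ACGTG. The Ldha window held 7 matches, 2 pairs of them in CACGTG. In Pfkp 4 copies of GCGTG were found, and in Adm 2 copies of CACGC. At least 1 match stood in 43.8% of all 32851 listed windows, so a match by itself is common. The other shares count genes, each with a match in any of its listed windows, and are not on the scale of single windows. By gene the share was 55.3% of the 15563 tested genes with a window. It was 71.3% of 996 genes that rose at 13 d with a more positive response and 65.1% of 1196 that fell at 13 d with a more negative response. Among genes that rose at both times it was 23 of 30 (76.7%). Of genes that rose at 48 h with a more negative response at 13 d, 32 of 58 (55.2%) had one. A match is a description of letters and shows no binding.

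Slc16a3 encodes MCT4, the transporter that exports lactate from glycolytic cells. Its levels were 12.40, 12.38 and 12.48 in the 13 d 3% arrays, against 10.84, 11.12 and 11.16 in the 13 d 21% arrays. At 48 h they were 11.13, 9.24 and 10.03 in 3% O2, against 7.46, 7.66 and 7.79 in 21% O2. The groups did not overlap at either time, and the 48 h 3% arrays were the most scattered, with replicate 1 highest. Slc16a3 rose 2.60-fold at 13 d (1.38 ± 0.30, adjusted p = 0.00174) and 5.64-fold at 48 h (2.50 ± 0.30, adjusted p = 0.000252). The difference of -1.12 ± 0.42 did not pass (adjusted p = 0.0867). It was -0.62 without replicate 1 of 48 h 3%, and -1.56 with an adjusted p of 0.00529 without replicate 2.

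Pdk1, the kinase that keeps pyruvate out of the mitochondrial cycle, was alike in pattern. It measured 11.43, 11.49 and 11.39 at 13 d in 3% O2, against 10.55, 10.74 and 10.75 in 21% O2. In the 48 h cultures it measured 9.75, 8.46 and 8.82 in 3% O2, against 7.46, 7.38 and 7.47 in 21% O2. Pdk1 rose at both times, by 0.76 ± 0.23 at 13 d and 1.57 ± 0.23 at 48 h, and the difference of -0.82 ± 0.32 had an adjusted p of 0.102. This difference was -0.45 without replicate 1 of 48 h 3%, and -1.09 with an adjusted p of 0.0206 without replicate 2. Ldha, the enzyme that turns pyruvate into lactate, had a more negative response at 13 d. Its levels were 13.50, 13.50 and 13.62 in the 13 d 3% arrays, against 12.96, 12.99 and 13.08 in the 13 d 21% arrays. The 48 h levels were 13.23, 12.77 and 12.86 in 3% O2, against 12.01, 11.76 and 11.66 in 21% O2. Ldha rose 1.44-fold at 13 d and 2.21-fold at 48 h, and no array of one oxygen level reached those of the other at either time.

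Members of one enzyme family moved differently. Pfkp, the platelet form of phosphofructokinase, had levels of 9.71, 9.28 and 9.75 in the 13 d 3% arrays, against 7.09, 7.17 and 6.98 in the 13 d 21% arrays. Its 48 h levels were 11.06, 10.64 and 10.60 in 3% O2, against 9.42, 10.05 and 9.98 in 21% O2. Pfkp rose 5.66-fold at 13 d (2.50 ± 0.21) and 1.93-fold at 48 h (0.95 ± 0.21), and its response was more positive at 13 d by 1.55 ± 0.30 (adjusted p = 0.00142). Pfkl, the liver form, ran the other way. It lay at 11.69, 11.71 and 11.68 in the 13 d 3% arrays, against 11.40, 11.45 and 11.43 in the 13 d 21% arrays, a response of 0.26 ± 0.19 that did not pass (adjusted p = 0.393). At 48 h it lay at 10.39, 9.42 and 9.60 in 3% O2, against 8.80, 8.50 and 8.57 in 21% O2, and rose by 1.18 ± 0.19. Its difference was -0.92 ± 0.26 (adjusted p = 0.0216). Pfkfb3, which makes the activator of phosphofructokinase, had a more positive response at 13 d (0.85 ± 0.27, adjusted p = 0.0415), with a response of 1.58 ± 0.19 at 13 d and of 0.73 ± 0.19 at 48 h that did not pass there.

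The glucose transporters differed from each other too. Slc2a1 (GLUT1) rose by 1.02 ± 0.20 at 13 d and 1.18 ± 0.20 at 48 h, a difference of -0.15 ± 0.29 with a 95% interval from -0.76 to 0.45. Slc2a3 (GLUT3), the transporter of high affinity found in neurons, rose by 1.96 ± 0.23 at 13 d, while its 48 h response of 0.90 ± 0.23 did not pass (adjusted p = 0.0607). The difference of 1.06 ± 0.32 passed (adjusted p = 0.0294) and lost its call when any of 7 arrays was left out, with values of 0.93 to 1.32 over all 12 omissions and an adjusted p of up to 0.0818. Slc16a1 (MCT1), the other lactate and pyruvate carrier of the list, rose at 13 d by 0.74 ± 0.10 and had a more positive response by 0.46 ± 0.14. The remaining enzymes, Tpi1, Pgk1, Pgam1 and Pkm among them, had differences that did not pass.

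**Figure D2:**
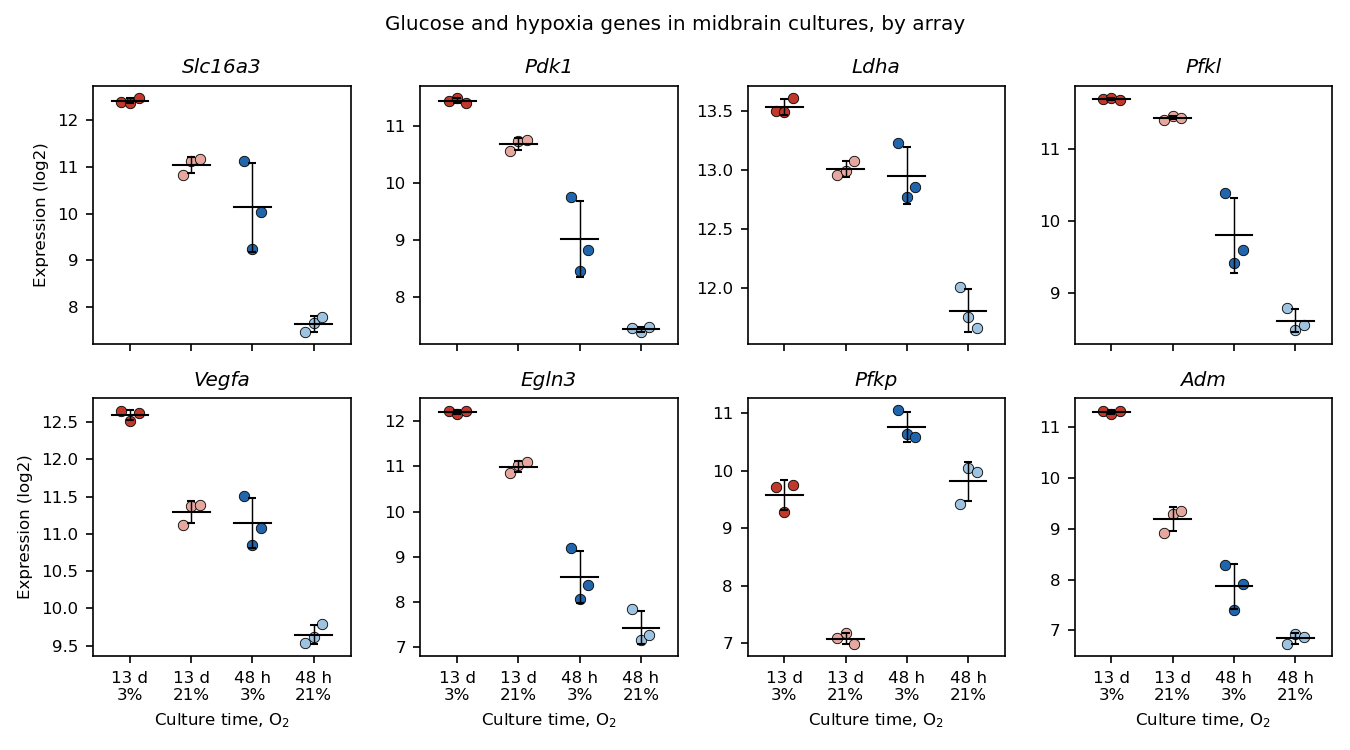
Expression (log2) of 8 glucose and hypoxia genes in each midbrain array, by culture time and oxygen; points are arrays, horizontal lines group means and bars the SD of 3 arrays. In Slc16a3, Pdk1, Ldha and Pfkl the step between 3% and 21% O2 is larger at 48 h, in Pfkp and Adm it is larger at 13 d, and in Vegfa and Egln3 the steps are near each other.

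Of 31 measured other HIF targets, 21 rose and 2 fell at 13 d (Mxi1 and Angptl4), and 9 rose and 0 fell at 48 h. The difference was more positive for 11 and more negative for 2, did not pass for 18, and had a median of 0.53. Among the 26 of them on brighter probe sets the median was 0.17, with 11 more positive and 3 more negative. Adm, a vasodilator peptide, had levels of 11.33, 11.26 and 11.33 at 13 d in 3% O2, against 8.92, 9.30 and 9.36 in 21% O2. At 48 h Adm had levels of 8.28, 7.40 and 7.92 in 3% O2, against 6.73, 6.93 and 6.87 in 21% O2. It rose 4.33-fold at 13 d and 2.03-fold at 48 h, without overlap, and the difference was 1.09 ± 0.23 (adjusted p = 0.00258). Bhlhe40, a transcriptional repressor of the circadian system that HIF induces, rose by 1.49 ± 0.15 at 13 d, against 0.29 ± 0.15 at 48 h, which did not pass, and the difference was 1.19 ± 0.21 (adjusted p = 0.000514). Ndrg1, Stc2, Car12 and Gbe1 also had more positive responses at 13 d, by 1.42 ± 0.33, 1.26 ± 0.26, 1.59 ± 0.38 and 1.24 ± 0.29. They encode a stress-response protein, a secreted stanniocalcin, a carbonic anhydrase at the cell surface and the glycogen branching enzyme.

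Narf and Kdm3a made up the 2 HIF targets with a more negative response at 13 d. Narf, a protein that binds prelamin A, measured 9.93, 10.11 and 9.87 at 13 d in 3% O2, against 10.04, 10.04 and 9.97 in 21% O2. At 48 h it measured 10.01, 9.97 and 9.92 in 3% O2, against 9.25, 9.15 and 8.91 in 21% O2. Its groups overlapped at 13 d and were apart at 48 h, where Narf rose by 0.86 ± 0.09, and the difference was -0.91 ± 0.12 (adjusted p = 5.83e-05). Kdm3a, a histone demethylase that uses oxygen, rose by 0.71 ± 0.10 at 48 h, against 0.21 ± 0.10 at 13 d, which did not pass, with a difference of -0.50 ± 0.14. Bnip3, a mitophagy receptor, rose by 1.52 ± 0.30 at 48 h and had a response of 0.75 ± 0.30 at 13 d (adjusted p = 0.0816). The difference for Bnip3 was -0.77 ± 0.42 (adjusted p = 0.266), and a second probe set gave -0.31, with a rise at both times, by 1.00 at 13 d (adjusted p = 0.0189) and 1.31 at 48 h (adjusted p = 0.0383). Without replicate 1 of 48 h 3% the value of the first was -0.35.

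Vegfa and Egln3 rose at both times by amounts whose difference did not pass. Vegfa, the angiogenic growth factor, had levels of 12.64, 12.52 and 12.62 at 13 d in 3% O2, against 11.12, 11.38 and 11.38 in 21% O2. At 48 h Vegfa had levels of 11.51, 10.85 and 11.08 in 3% O2, against 9.54, 9.61 and 9.79 in 21% O2. The 95% interval of its difference ran from -0.86 to 0.47. Egln3, an oxygen-sensing prolyl hydroxylase that is itself a HIF target, had levels of 12.24, 12.16 and 12.23 at 13 d in 3% O2, against 10.85, 11.02 and 11.09 in 21% O2. Its 48 h levels were 9.20, 8.07 and 8.37 in 3% O2, against 7.85, 7.16 and 7.28 in 21% O2. Egln3 rose by 1.22 ± 0.21 at 13 d and 1.12 ± 0.21 at 48 h, and the interval of the difference ran from -0.53 to 0.73.

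The level of these genes in room air was itself higher in the 13 d arrays. For 27 of the 31 other HIF targets and 15 of the 20 genes of glucose use, every 13 d 21% array lay above every 48 h 21% array, which held for 35.0% of all probe sets. For 23 and 12 of the genes of these lists, every 13 d 21% array lay above every 48 h 3% array, which held for 42.3% of all probe sets. Pdk1 and Egln3, given above, are of this kind, and Pfkp is an exception, with lower levels at 13 d. These levels cross the array runs, so time and run cannot be told apart.

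Among the HIF subunits and their regulators, 5 of 10 rose and 4 fell at 13 d, 1 rose (Egln3; 0 without replicate 2 or 3 of 48 h 21%) and 0 fell at 48 h, and the difference was more positive for 2 and more negative for 1. Hif3a, whose products can act as inhibitors of the pathway, rose by 1.21 ± 0.15 at 13 d, against 0.14 ± 0.15 at 48 h, which did not pass, with a difference of 1.08 ± 0.22 (adjusted p = 0.00196). Hif1a, the main alpha subunit, had levels of 11.01, 10.90 and 11.12 at 13 d in 3% O2, against 11.41, 11.40 and 11.39 in 21% O2, and fell by 0.39 on the log2 scale. At 48 h it had levels of 11.41, 11.49 and 11.38 in 3% O2, against 11.47, 11.37 and 11.47 in 21% O2, and the groups overlapped. Its difference was -0.37 ± 0.09 (adjusted p = 0.00558). Epas1, which encodes HIF-2 alpha, had a difference of 1.05 ± 0.35 with an adjusted p of 0.0461, and this call was lost in 11 of the 12 fits that left out 1 array, all but that without replicate 2 of 13 d 3%, with an adjusted p of up to 0.11.

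Other genes rose or fell at both times. Of 35 named genes that rose at both times, 29 had no difference past the threshold, 4 had a more positive response at 13 d (Pfkp, Adm, Tmem97 and Kdelr3) and 2 a more negative one (Ldha and Aldoa). The smallest differences in this group belonged to Selenon, Ache, Ints13, Ufsp1, Pkm and Plpp5. Ache, the enzyme that breaks down acetylcholine, had levels of 8.07, 8.32 and 8.04 at 13 d in 3% O2, against 7.06, 7.09 and 7.17 in 21% O2. At 48 h its levels were 10.05, 9.35 and 9.57 in 3% O2, against 8.62, 8.68 and 8.63 in 21% O2. Ache rose 2.05-fold and 2.02-fold at the 2 times, and the difference of 0.02 ± 0.27 had an interval from -0.54 to 0.59. Pkm, the pyruvate kinase of most tissues, rose by 0.39 ± 0.08 at 13 d and 0.44 ± 0.08 at 48 h, with an interval of the difference from -0.27 to 0.18. Selenon, a selenoprotein of the endoplasmic reticulum, rose by 0.22 ± 0.05 and 0.21 ± 0.05. A p that misses the threshold does not show that the responses are alike, and the intervals give the sizes these arrays allow. Of 16 genes that fell at both times, 0 had a difference past the threshold. The smallest differences among them were those of Sh3bgrl, Commd7, Gatc and Wdr1, each with a response between -0.39 and -0.27 at both times.

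A small set of genes went in opposite directions, a count near or below the background share of calls at 13 d given above. By the naming rule, 25 genes passed at both times with opposite signs and also for the difference, 11 with a more positive and 14 with a more negative response at 13 d. Ccng1 and Phlda3, known targets of the p53 tumour suppressor, were among them. Phlda3, a repressor of Akt signalling, had levels of 10.56, 10.37 and 10.54 at 13 d in 3% O2, against 9.16, 9.31 and 9.39 in 21% O2. The 48 h levels were 8.03, 8.08 and 7.97 in 3% O2, against 8.55, 8.37 and 8.33 in 21% O2. Phlda3 rose by 1.20 ± 0.09 at 13 d and fell by 0.39 on the log2 scale at 48 h (adjusted p = 0.0341), a difference of 1.59 ± 0.12. Ccng1, cyclin G1, measured 12.77, 12.62 and 12.75 at 13 d in 3% O2, against 12.19, 12.21 and 12.34 in 21% O2. At 48 h it measured 10.54, 10.63 and 10.67 in 3% O2, against 11.20, 11.08 and 11.39 in 21% O2. Neither gene overlapped between oxygen levels at either time, which a choice by calls at both times makes likely.

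The p53 list had more rises than falls at 13 d. Of 23 measured targets, 11 rose and 1 fell (Btg2) at 13 d, and 0 rose and 2 fell at 48 h. The difference was more positive for 13 and more negative for 1. Ccng1 and Phlda3 are among the 23 and are the 2 that fell at 48 h. They were picked above by their calls, so counts that hold them are not separate from that choice. At 13 d 47.8% rose and 4.35% fell, beside 11.2% and 12.7% of all probe sets. More positive differences made up 56.5%, beside 6.86%, and more negative ones 4.35%, beside 8.24%. The median of the difference was 0.58, from list medians of 0.31 at 13 d and -0.15 at 48 h. Tnfrsf10b, a death receptor, measured 9.44, 9.44 and 9.31 at 13 d in 3% O2, against 7.48, 7.55 and 7.72 in 21% O2. In the 48 h arrays it measured 7.39, 7.20 and 7.31 in 3% O2, against 7.50, 7.46 and 7.99 in 21% O2. Its difference was 2.16 ± 0.26 (adjusted p = 1.55e-05), and the 48 h response of -0.35 ± 0.18 did not pass. Eda2r, another death receptor, and Aen, a nuclease of apoptosis, had differences of 1.56 ± 0.18 and 0.93 ± 0.15. Mdm2, the ubiquitin ligase that removes p53, had a difference of 0.42 ± 0.11 (adjusted p = 0.0171), which was 0.35 with an adjusted p of 0.0531 without replicate 1 of 48 h 3%. At 48 h the count of 2 was 1 when any array of 48 h 3%, or replicate 1 or 2 of 48 h 21%, was left out. Btg2, an antiproliferative gene that also marks neurogenic divisions, went the other way, with -1.08 ± 0.14.

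The other genes with a rise at 13 d and a fall at 48 h included Idi1, Gnaz, Yaf2 and Mecr. Idi1, an enzyme of cholesterol synthesis, rose by 0.46 ± 0.10 at 13 d and fell by 0.42 at 48 h, a difference of 0.88 ± 0.14, and its second probe set gave the same difference. Gnaz, a G protein subunit, had a difference of 0.90 ± 0.10, Yaf2, a partner of Polycomb proteins, 0.59 ± 0.09, and Mecr, of mitochondrial fatty acid synthesis, 0.55 ± 0.08. In the other direction stood Cd59a, Cacng5, Nrsn1, Fut9, As3mt and Ndst3, all of which fell at 13 d and rose at 48 h. Nrsn1, a protein of neuronal vesicles, had levels of 6.56, 6.74 and 6.70 at 13 d in 3% O2, against 7.06, 6.97 and 7.09 in 21% O2. Its 48 h levels were 9.48, 9.53 and 9.63 in 3% O2, against 8.82, 8.69 and 9.11 in 21% O2. The difference for Nrsn1 was -1.05 ± 0.14. Cd59a, an inhibitor of complement, had a difference of -1.20 ± 0.15, Cacng5, which modulates AMPA receptors, -1.06 ± 0.15, and Fut9, which makes the Lewis X epitope of neural stem cells, -0.93 ± 0.09. As3mt, an arsenic methyltransferase, and Ndst3, of heparan sulfate synthesis, had -0.89 ± 0.11 and -0.82 ± 0.10. When each array was left out in turn, the 48 h calls of Ccng1, Nrsn1 and As3mt were kept in all 12 fits, while those of the other 9 genes named here were lost in 3 to 9 of 12 fits.

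**Figure D3:**
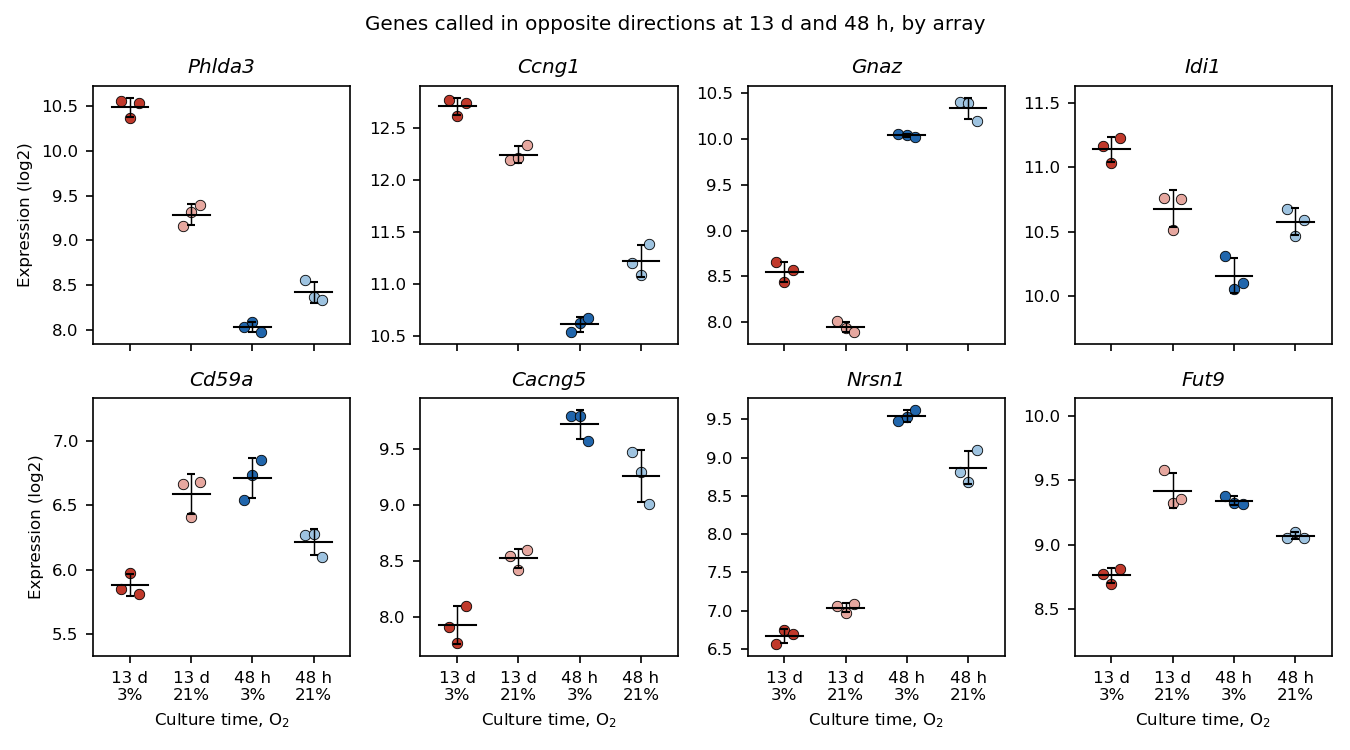
Expression (log2) of 8 of the genes called in opposite directions at 13 d and 48 h, in each midbrain array; points are arrays, horizontal lines group means and bars the SD of 3 arrays. The upper row is higher in 3% O2 at 13 d and lower in 3% O2 at 48 h, and the lower row is the reverse, without overlap between oxygen levels at either time. The genes were chosen by these calls, so the lack of overlap is no separate support.

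The largest differences belonged to genes whose 48 h response did not pass. The 10 most positive were those of Cd93, Apod, Col12a1, Lrrc32, Phospho1, Adamts14, Ier3, Unc5b, Angpt2 and Crispld2, from 2.81 to 2.17. Cd93, a glycoprotein of endothelium and progenitors, measured 10.88, 10.60 and 10.87 at 13 d in 3% O2, against 7.16, 7.00 and 7.53 in 21% O2. The 48 h values were 8.27, 8.18 and 7.67 in 3% O2, against 7.74, 7.35 and 6.80 in 21% O2. It rose 11.7-fold at 13 d, while the 48 h groups overlapped. Ier3, an immediate early survival gene, measured 10.10, 10.10 and 10.12 at 13 d in 3% O2, against 7.06, 7.73 and 7.54 in 21% O2. Its values at 48 h were 7.47, 6.91 and 7.05 in 3% O2, against 6.72, 6.97 and 6.91 in 21% O2, and its groups overlapped there. The difference for Ier3 was 2.39 ± 0.23 (adjusted p = 2.04e-06). Phospho1, a phosphatase of bone mineralization, had a difference of 2.44 ± 0.26, Unc5b, a netrin receptor, 2.20 ± 0.29, and Angpt2, an angiopoietin, 2.19 ± 0.51.

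Apod, a lipid carrier made by glia and fibroblasts, was uneven at 48 h. Its levels were 10.22, 9.42 and 10.10 at 13 d in 3% O2, against 7.35, 7.52 and 7.57 in 21% O2. At 48 h its levels were 7.71, 7.57 and 9.46 in 3% O2, against 7.93, 7.54 and 9.58 in 21% O2. Replicate 3 was the highest of both 48 h groups. The difference of 2.54 ± 0.65 (adjusted p = 0.0113) lay between 1.92 and 3.14 when arrays were left out.

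The 10 most negative differences ran from -2.56 to -1.93 and belonged to Gjc3, Gabbr2, Gpr17, Slc24a3, Prkcq, Sncaip, Mc5r, Actc1, Naaa and Lrrtm2. Gjc3, a connexin of oligodendrocytes, measured 9.48, 8.73 and 9.47 at 13 d in 3% O2, against 11.96, 11.83 and 11.91 in 21% O2. Levels at 48 h were 7.02, 7.49 and 6.82 in 3% O2, against 7.34, 7.30 and 7.05 in 21% O2. It fell 6.38-fold at 13 d, and the 48 h groups overlapped. Sncaip, which binds alpha-synuclein, had levels of 7.72, 7.76 and 7.69 at 13 d in 3% O2, against 9.91, 9.72 and 9.78 in 21% O2. Its 48 h levels were 9.24, 9.47 and 9.37 in 3% O2, against 9.32, 9.47 and 9.28 in 21% O2. The difference for Sncaip of -2.09 ± 0.12 (adjusted p = 3.53e-09) came from the 13 d response alone, since that at 48 h was 0.01 ± 0.08. Gabbr2, a subunit of the GABA-B receptor, fell by 2.18 at 13 d, and Lrrtm2, a synaptic adhesion protein, fell by 1.66, against 48 h responses of 0.15 ± 0.22 and 0.27 ± 0.22 that did not pass.

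**Figure D4:**
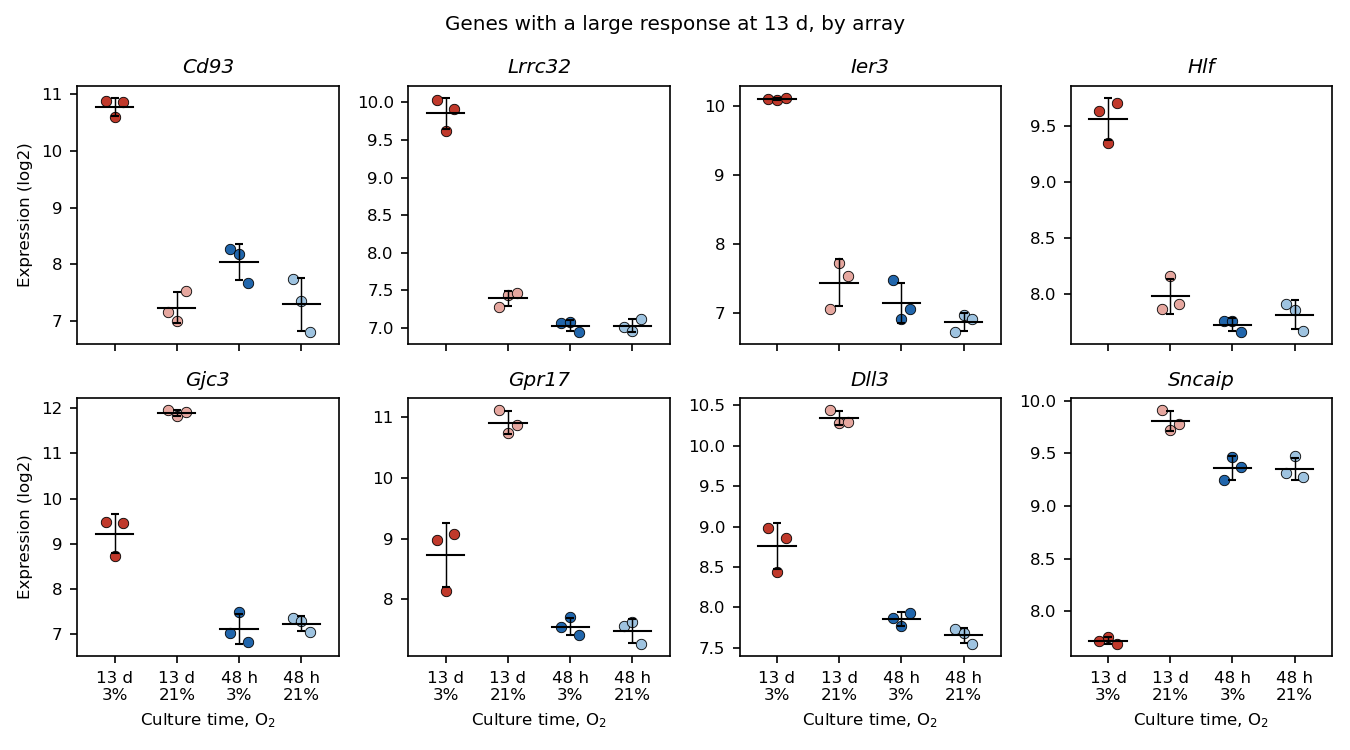
Expression (log2) of 8 genes with a large response at 13 d, in each midbrain array; points are arrays, horizontal lines group means and bars the SD of 3 arrays. Cd93, Lrrc32, Ier3 and Hlf (upper row) were higher in 3% O2 at 13 d and Gjc3, Gpr17, Dll3 and Sncaip (lower row) lower, while none of the 8 passed at 48 h.

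Most Notch and neurogenic genes had no called difference, and of those that did most were more negative at 13 d. In the Notch pathway a ligand on one cell activates the receptor of its neighbour, which keeps neural progenitors from differentiating through Hes genes. Of 22 Notch genes, 2 rose and 7 fell at 13 d, 0 passed at 48 h, and the difference was more positive for 1, more negative for 6 and not called for 15, with a list median of -0.07. The ligands Dll1 and Dll3 had differences of -1.19 ± 0.16 and -1.79 ± 0.38, and Mfng, a sugar transferase that modifies the receptors, -1.39 ± 0.14. Dll3 measured 8.98, 8.43 and 8.86 at 13 d in 3% O2, against 10.44, 10.28 and 10.30 in 21% O2. The 48 h values of Dll3 were 7.86, 7.77 and 7.94 in 3% O2, against 7.73, 7.68 and 7.54 in 21% O2, and that response did not pass. The Hes effectors went apart. Hes5 fell at 13 d by 1.50, with a difference of -1.42 ± 0.32 (adjusted p = 0.00455), and Hes1 rose by 0.96 ± 0.20, with a difference of 0.86 ± 0.29 (adjusted p = 0.0466). The call for Hes1 was lost in 10 of 12 fits that left out 1 array, all but those without replicate 1 of 48 h 3% or replicate 3 of 48 h 21%, with an adjusted p of up to 0.116.

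Of 17 proneural and neurogenic factors, 0 rose and 5 fell at 13 d, and 0 passed at 48 h. The difference was more negative for Neurog2, Gadd45g, Btg2, Sox4 and Myt1 and more positive for Eomes, and was not called for 11, with a list median of 0.02. Neurog2, which commits progenitors to neurons, measured 7.19, 7.32 and 7.21 at 13 d in 3% O2, against 7.82, 7.90 and 7.97 in 21% O2. In the 48 h arrays it measured 7.37, 7.35 and 7.30 in 3% O2, against 7.55, 7.42 and 7.37 in 21% O2. Its difference was -0.55 ± 0.08. Myt1, a zinc finger factor of early neurons and oligodendrocyte progenitors, had a difference of -1.80 ± 0.27, and Gadd45g, a growth arrest gene downstream of proneural factors, -0.98 ± 0.12. Sox4 had -0.59 ± 0.09.

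Members of the TGF-beta and BMP pathways were divided. Of 24 TGF-beta genes, 7 rose and 2 fell at 13 d (13 and 2 in the fit with the replicate number as a block), and 0 passed at 48 h. The difference was more positive for 5 and more negative for 3. At 13 d 29.2% of the list rose and 8.33% fell, beside 11.2% and 12.7% of all probe sets. More positive differences made up 20.8%, beside 6.86%, and more negative ones 12.5%, beside 8.24%. Lrrc32, which holds latent TGF-beta at the cell surface, measured 10.03, 9.62 and 9.91 at 13 d in 3% O2, against 7.27, 7.43 and 7.47 in 21% O2. The 48 h values were 7.06, 7.08 and 6.94 in 3% O2, against 7.01, 6.95 and 7.12 in 21% O2, a response of 0.00 ± 0.11. The binding protein Ltbp1 and the signal transducer Smad3 had more positive responses, by 1.40 ± 0.28 and 1.02 ± 0.17. The ligand Tgfb3 and Pmepa1, a feedback inhibitor of the pathway, had more negative ones, by -0.97 ± 0.14 and -1.16 ± 0.17. Of 20 BMP and Id genes, 4 rose and 2 fell at 13 d and 0 passed at 48 h. The difference was more positive for Bmp7, Id1, Id2 and Smad9 and more negative for Id4, with 1.17 ± 0.22 for the ligand Bmp7, 1.34 ± 0.29 for Id1 and -1.22 ± 0.40 for Id4. Id proteins are inhibitors of proneural factors. Leaving out any of 8 arrays (replicates 1 and 3 of 48 h 3%, 1 and 2 of 48 h 21%, 1 and 3 of 13 d 3%, 1 and 2 of 13 d 21%) reduced the 5 calls of this list to 3.

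Part of the matrix genes rose at 13 d. Of 21 collagen genes, 14 rose and 0 fell at 13 d and 0 passed at 48 h, and the difference was more positive for 7 (11 with the replicate block, 3 with the 12 midbrain arrays alone) and more negative for 0. When 1 array was left out the 7 became 12 without replicate 1 of 48 h 21% and as few as 3 without others, and the 14 became 9 without replicate 1 or 3 of either 13 d group. Col12a1 measured 10.86, 10.58 and 10.76 at 13 d in 3% O2, against 7.66, 7.91 and 7.96 in 21% O2. In the 48 h arrays it measured 8.48, 7.69 and 7.96 in 3% O2, against 8.02, 7.32 and 7.72 in 21% O2, and the groups overlapped. Col18a1, a basement membrane collagen, had a difference of 1.61 ± 0.30 and Col16a1 one of 0.39 ± 0.07. Of 32 other matrix genes, 14 rose and 2 fell at 13 d, 0 passed at 48 h, and the difference was more positive for 8 and more negative for 3 (13 and 5 with the replicate block). The proteases Adamts1 and Mmp14 had differences of 1.81 ± 0.22 and 1.41 ± 0.17, and the protease inhibitors went both ways, with 1.17 ± 0.31 for Timp1, -0.98 ± 0.14 for Timp2 and -0.68 ± 0.20 for Timp3.

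Markers of pericytes, fibroblasts and meninges moved with the collagens, and 2 of the 10 genes of that list are collagens of both lists with a called difference. At 13 d 6 of the 10 rose and 0 fell, at 48 h 0 passed, and the difference was more positive for 4 (Postn, Acta2, Col1a1 and Col3a1) and more negative for 0. The list mean was 8.16 ± 0.23 in 13 d 3% and 7.33 ± 0.04 in 13 d 21%, and 7.62 ± 0.65 in 48 h 3% and 7.65 ± 0.67 in 48 h 21% (SD, n = 3). Postn, periostin, measured 8.62, 8.10 and 8.76 at 13 d in 3% O2, against 6.18, 6.15 and 6.17 in 21% O2. Its values at 48 h were 6.76, 6.69 and 7.73 in 3% O2, against 6.58, 6.45 and 7.45 in 21% O2. The wide spread at 48 h came from replicate 3 of both groups, where Dcn, a fibroblast proteoglycan, stood at 10.63 and 10.89, against 6.92 to 7.65 in the other 48 h arrays. The count of 4 became 1 when any of 8 arrays was left out, all but replicate 3 of 48 h 3%, replicates 1 and 2 of 48 h 21% and replicate 2 of 13 d 3%, and with the 12 midbrain arrays alone. Col3a1 had a difference of 0.63 ± 0.20. Its call was lost with the 12 midbrain arrays alone and when any single array of 13 d was left out. It was also lost without replicate 1 or 2 of 48 h 3%, or without replicate 3 of 48 h 21%. Without the last the difference was 0.40 (adjusted p = 0.0779), and the adjusted p reached 0.105 without replicate 2 of 48 h 3%. The part of such cells in the matrix response was not tested.

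In the lists of amino acid supply and stress signalling, part of the genes passed at 13 d and 0 at 48 h, where 1.19% of all probe sets passed. The integrated stress response raises Atf4, a transcription factor that switches on amino acid transporters, tRNA synthetases and serine metabolism. Of 19 amino acid transporters and tRNA synthetases, 15 rose and 0 fell at 13 d, 0 passed at 48 h, and the difference was more positive for 13 and more negative for 0, with a median of 0.55. The list median of the 48 h response was 0.16. Without replicate 3 of 48 h 21% the 13 became 8. Slc7a3, a carrier of cationic amino acids, measured 9.08, 10.25 and 9.07 at 13 d in 3% O2, against 7.07, 7.49 and 7.33 in 21% O2. Levels at 48 h were 10.51, 10.80 and 10.36 in 3% O2, against 9.79, 10.13 and 10.10 in 21% O2, a response of 0.55 ± 0.25 that did not pass. Replicate 2 was the highest array of 13 d 3% for Slc7a3 and also for Asns, Chac1 and Slc7a11. Slc7a5 and Slc3a2, the chains of the large neutral amino acid transporter, had differences of 0.71 ± 0.12 and 0.66 ± 0.08.

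Of 29 genes of the integrated stress and unfolded protein responses, 15 rose and 2 fell at 13 d and 0 passed at 48 h. The difference was more positive for 12 and more negative for 1, Sdf2l1. At 13 d 51.7% rose and 6.90% fell, beside 11.2% and 12.7% of all probe sets. More positive differences made up 41.4%, beside 6.86%, and more negative ones 3.45%, beside 8.24%. Hspa5, Hsp90b1, Calr, Canx, Dnajb9, Dnajc3, Herpud1, Xbp1, Edem1, Pdia4, Pdia6 and Creld2, of the unfolded protein response, had no called difference. Of these, Hsp90b1, Edem1 and Pdia6 rose at 13 d. Atf4 had levels of 8.51, 8.82 and 8.54 at 13 d in 3% O2, against 8.20, 8.20 and 8.05 in 21% O2. Its 48 h levels were 8.78, 8.90 and 8.99 in 3% O2, against 9.17, 9.14 and 9.14 in 21% O2. These groups did not overlap, but the 48 h response of -0.26 ± 0.08 did not pass (adjusted p = 0.139), and the difference was 0.73 ± 0.12. Asns, which makes asparagine, Mthfd2, a mitochondrial folate enzyme, and Chac1, which degrades glutathione, had differences of 1.11 ± 0.23, 1.46 ± 0.29 and 1.24 ± 0.22. Cebpb and Shmt2 had 0.63 ± 0.08 and 0.75 ± 0.12.

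NRF2 is a factor that responds to electrophiles and oxidants and controls antioxidant genes. Of 18, 10 rose and 1 fell at 13 d, 0 passed at 48 h, and the difference was more positive for 10, more negative for 1 and not called for 7. At 13 d 55.6% rose and 5.56% fell, beside 11.2% and 12.7% of all probe sets. More positive differences made up 55.6%, beside 6.86%, and more negative ones 5.56%, beside 8.24%. The 2 subunits of the enzyme that limits glutathione synthesis, Gclc and Gclm, had differences of 0.93 ± 0.16 and 0.67 ± 0.10. Nqo1, a quinone reductase, was the gene called more negative. It measured 8.02, 8.24 and 7.97 at 13 d in 3% O2, against 8.74, 8.87 and 9.06 in 21% O2. In the 48 h arrays it measured 6.00, 5.94 and 6.09 in 3% O2, against 5.94, 5.86 and 5.78 in 21% O2. The difference for Nqo1 was -0.96 ± 0.29 (adjusted p = 0.0279), made at a low level at 48 h.

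Cholesterol synthesis genes, which the factor SREBP2 controls and several of whose enzymes use oxygen, had more called differences that were positive than negative. Of 23 genes, 13 rose and 2 fell at 13 d, 0 rose and 1 fell at 48 h (Idi1, which lost its call without any of 5 arrays: replicate 2 or 3 of 48 h 3%, replicate 1 or 3 of 48 h 21% and replicate 1 of 13 d 3%), and the difference was more positive for 9 (15 with the 12 midbrain arrays alone) and more negative for 1. Hsd17b7, an enzyme of the late pathway, had a difference of 0.96 ± 0.15, Insig1, a sterol sensor, 0.90 ± 0.18, and Sqle, the oxygen-dependent squalene epoxidase, 0.71 ± 0.12. The exporter Abca1, a target of the oxysterol receptor LXR, measured 8.62, 7.93 and 8.66 at 13 d in 3% O2, against 10.65, 10.37 and 10.48 in 21% O2. Its 48 h values were 8.63, 8.90 and 8.87 in 3% O2, against 9.27, 9.14 and 8.97 in 21% O2. Abca1 fell by 2.09 at 13 d, and the 48 h response of -0.33 ± 0.24 did not pass, a difference of -1.77 ± 0.34 (adjusted p = 0.00121).

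Feedback genes of EGF and FGF signalling, the pathways through which expansion media drive progenitor growth, had more called differences that were positive than negative. Of 22 genes, 14 rose and 2 fell at 13 d, 0 passed at 48 h, and the difference was more positive for 11 and more negative for 1, the receptor Erbb3. Spry1, an inhibitor of receptor signalling, had levels of 11.24, 11.57 and 11.41 at 13 d in 3% O2, against 9.67, 9.88 and 9.71 in 21% O2. The 48 h levels of Spry1 were 9.89, 9.64 and 9.78 in 3% O2, against 9.99, 9.68 and 9.68 in 21% O2, a response of -0.01 ± 0.18. Etv4, an ETS factor downstream of FGF, and Spred2, an inhibitor of ERK signalling, had differences of 1.00 ± 0.13 and 0.97 ± 0.10. Of 12 insulin-like growth factors, receptors and binding proteins, 9 rose and 0 fell at 13 d, 0 passed at 48 h, and the difference was more positive for 8 and more negative for 0. Rises made up 75%, beside 11.2% of all probe sets, and more positive differences 66.7%, beside 6.86%. The 8 became 5 without replicate 1 or 3 of 13 d 3% or replicate 2 of 13 d 21%. Irs2, an adaptor of the insulin receptor, had a difference of 0.70 ± 0.08 and Igfbp3, a binding protein, of 1.23 ± 0.24. Igf2, with a difference of 1.60 ± 0.52, was high in replicate 3 of both 48 h groups, at 8.65 in 3% and 8.95 in 21% O2, against 7.13 to 7.34 in the other 48 h arrays, as the fibroblast markers were.

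Cell cycle genes rose in part at 13 d. Of 36, 16 rose and 0 fell at 13 d and 0 passed at 48 h, and the difference was more positive for 6 (11 with the replicate block, 10 with the 12 midbrain arrays alone) and more negative for 0. The genes that rose at 13 d were 44.4% of the list, beside 11.2% of all probe sets. Those with a more positive difference were 16.7%, beside 6.86%. The 16 became 10 without replicate 1 or 3 of 13 d 3% and 9 without replicate 2 of 13 d 21%. The cyclins of the G1 phase led the list. Ccnd2 measured 12.69, 12.79 and 12.70 at 13 d in 3% O2, against 11.33, 11.35 and 11.35 in 21% O2. The 48 h values were 11.35, 11.05 and 11.17 in 3% O2, against 11.60, 11.00 and 11.06 in 21% O2, and the groups overlapped. Ccnd2 had a difference of 1.42 ± 0.16 and Ccnd1 of 1.37 ± 0.24. Mki67, the usual marker of cycling cells, had responses of 0.24 ± 0.10 and 0.23 ± 0.10 at 13 d and 48 h, neither past the threshold, and an interval of the difference from -0.29 to 0.33.

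Of 18 circadian genes, 12 rose and 0 fell at 13 d. At 48 h 1 rose (Ciart, and 0 without replicate 1 of 48 h 3% or replicate 2 or 3 of 48 h 21%) and 0 fell. The difference was more positive for 10 and more negative for 0. Rises at 13 d made up 66.7%, beside 11.2% of all probe sets, and more positive differences 55.6%, beside 6.86%. Hlf, an output transcription factor of the clock, measured 9.63, 9.34 and 9.70 at 13 d in 3% O2, against 7.87, 8.16 and 7.91 in 21% O2. Its values at 48 h were 7.76, 7.76 and 7.66 in 3% O2, against 7.92, 7.86 and 7.67 in 21% O2. Its difference was 1.67 ± 0.19, and those of the repressor Nr1d1 and of the clock gene Per1 were 1.46 ± 0.24 and 0.80 ± 0.14. The list holds Bhlhe40 and Rora, which are also in the HIF list. The labels give no time of day at which cultures were harvested. Of 18 immediate early genes, 4 rose and 0 fell at 13 d, 0 passed at 48 h, and the difference was more positive for 4 and more negative for 0. Rises made up 22.2%, beside 11.2% of all probe sets, and more positive differences 22.2%, beside 6.86%. Klf6 and Maff had differences of 0.80 ± 0.16 and 0.71 ± 0.13, while that of Fos, 0.49 ± 0.25, did not pass (adjusted p = 0.221).

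Of 33 genes of the respiratory chain, 5 rose and 1 fell at 13 d, 0 passed at 48 h, and the difference was more positive for 3 and more negative for 1. At 13 d 15.2% rose and 3.03% fell, beside 11.2% and 12.7% of all probe sets. More positive differences made up 9.09%, beside 6.86%, and more negative ones 3.03%, beside 8.24%. The positive counts were therefore near the background. The 4 calls became 7 without replicate 1 or 3 of 48 h 21% and 8 without replicate 2. Ndufa4l2 and Cox4i2, the forms of complex subunits that low oxygen is known to induce, had differences of 1.72 ± 0.20 and 1.04 ± 0.19. Ndufa4, the paralog of Ndufa4l2, had -0.38 ± 0.08. Ndufa4l2 measured 9.01, 9.54 and 9.19 at 13 d in 3% O2, against 7.47, 7.53 and 7.47 in 21% O2. Levels at 48 h were 7.05, 6.82 and 6.84 in 3% O2, against 6.72, 6.89 and 7.02 in 21% O2, so its groups overlapped at 48 h and did not at 13 d.

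**Figure D5:**
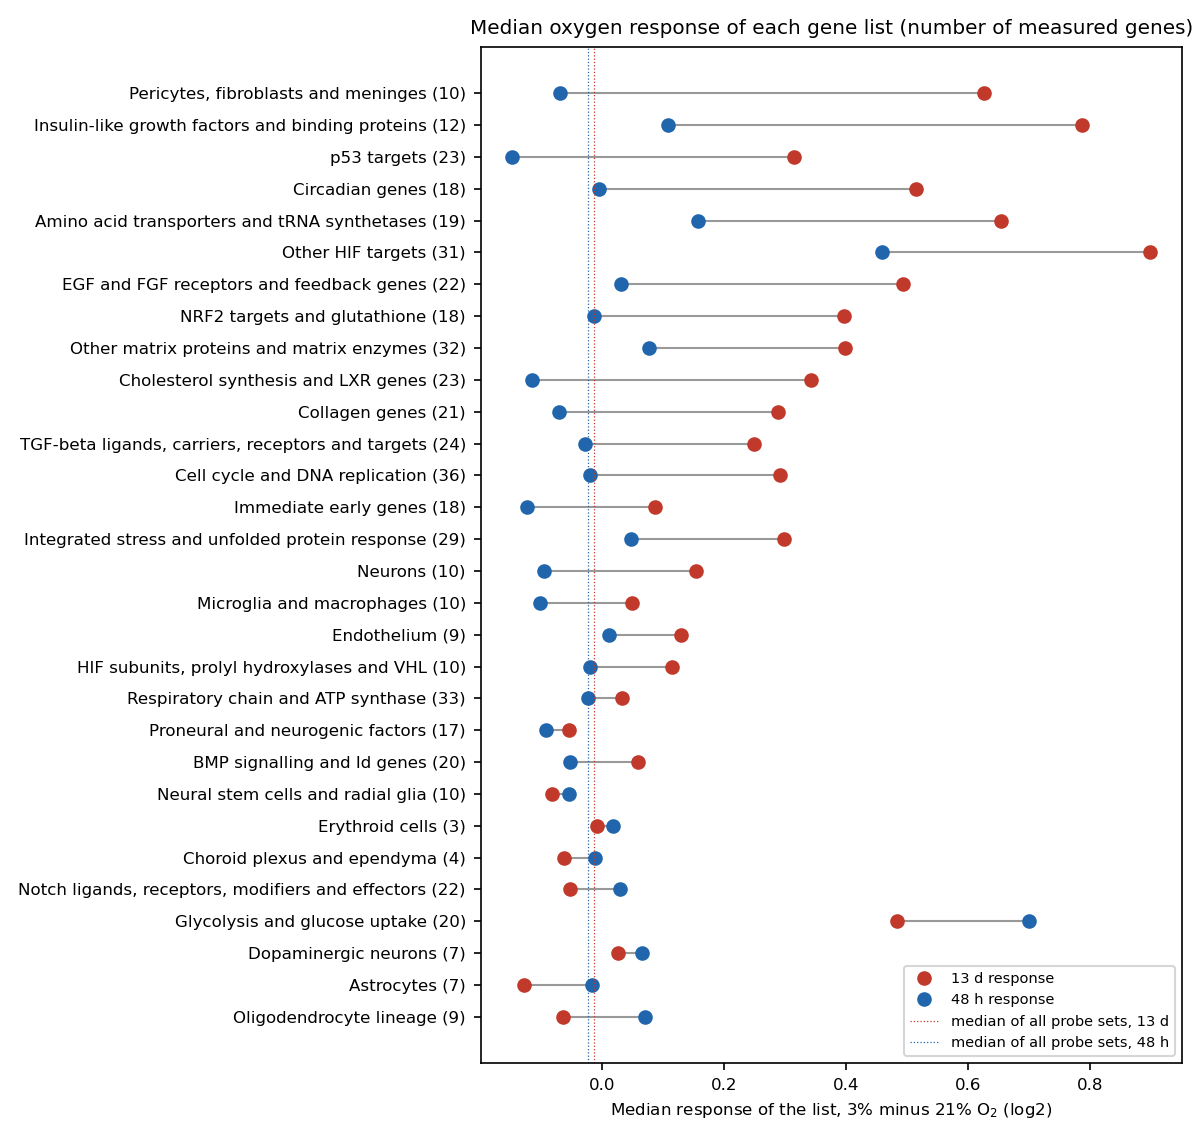
Median oxygen response (3% minus 21% O2, log2) of 30 gene lists at 13 d (red) and 48 h (blue), with the number of measured genes in brackets; dotted lines mark the medians of all probe sets, -0.01 at 13 d and -0.02 at 48 h. Most lists of metabolism and growth lie further right at 13 d, while the glycolysis list lies further right at 48 h, at 0.70 beside 0.48.

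List means of some cell type markers lay apart between the 13 d arrays and the 48 h arrays. The mean of 10 neuron genes was 8.45 ± 0.11 in 13 d 3% and 8.36 ± 0.07 in 13 d 21%, against 11.93 ± 0.02 in 48 h 3% and 12.01 ± 0.02 in 48 h 21%. The mean of 10 neural stem cell genes was 11.19 ± 0.10 and 11.29 ± 0.01 in the 13 d groups, against 9.93 ± 0.08 and 9.95 ± 0.20 in the 48 h groups (3% and then 21% O2). These levels cross the array runs, so time and run cannot be told apart, and they were not tested. Within times, 2 neuron genes rose (Stmn2 and Nefl) and 2 fell (Tubb3 and Map2) at 13 d, 0 passed at 48 h, and the difference was more positive for 2 and more negative for 1 (3 and 2 with the replicate block, 4 and 1 with the 12 midbrain arrays alone). Of all probe sets 11.2% rose and 12.7% fell at 13 d, and 6.86% and 8.24% had a more positive and a more negative difference. Counts this small in 10 genes are near these shares. Nes and Sox2, markers of neural stem cells, had differences of -0.12 ± 0.22 and 0.00 ± 0.10 that did not pass, and within the stem cell list only Hes1 and Hes5, described above, had a called difference. The dopaminergic markers of the midbrain were low, with Th between 6.71 and 6.98 at 13 d and between 7.31 and 7.91 at 48 h, and 0 of 7 had a called difference (1 without replicate 1 of 48 h 3% or replicate 1 or 2 of 48 h 21%).

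Among glial lists, 2 of 9 oligodendrocyte genes fell at 13 d (4 with the replicate block, and 1 without replicate 2 of 13 d 3% or any array of 13 d 21%), 0 passed at 48 h, and Gpr17 had a called difference (3 genes with the block, Pdgfra among them). At 13 d 22.2% of the list fell, beside 12.7% of all probe sets, and 11.1% had a more negative difference, beside 8.24%. Counts this small in 9 genes are near these shares. Gpr17, a receptor of committed oligodendrocyte progenitors, measured 8.98, 8.13 and 9.08 at 13 d in 3% O2, against 11.12, 10.73 and 10.88 in 21% O2. In the 48 h arrays it measured 7.54, 7.71 and 7.41 in 3% O2, against 7.56, 7.62 and 7.26 in 21% O2. Its difference was -2.25 ± 0.59 (adjusted p = 0.0134). Olig2, which marks the lineage from its start, had -0.17 ± 0.20, which did not pass. Pdgfra had -0.90 ± 0.43 (adjusted p = 0.193, and 0.00799 with the block). Of 7 astrocyte genes 0 passed in any of the 3 tests (3 fell at 13 d with the 12 midbrain arrays alone, and the differences of Gfap and Aqp4 were called when the block was added to that fit), and the list means were 9.90 ± 0.25 and 10.14 ± 0.12 in the 13 d groups, against 7.99 ± 0.08 and 8.00 ± 0.12 in the 48 h groups.

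The 10 microglia genes had list means of 6.25 ± 0.08 and 6.22 ± 0.05 in the 13 d groups, against 7.51 ± 0.29 and 7.69 ± 0.06 in the 48 h groups, and 0 had a called difference (2 after quantile normalization or median centring, 1 with trended robust moderation). The nearest were Tyrobp and C1qa, with differences of 0.67 ± 0.23 (adjusted p = 0.0537) and 0.43 ± 0.15 (adjusted p = 0.0562). Of the 48 h arrays, replicate 1 of 3% O2 was the lowest for both. They passed without replicate 3 of that group, with 0.94 (adjusted p = 0.000761) and 0.58 (adjusted p = 0.00297), and C1qa also passed without replicate 3 of 13 d 3%. Of 9 endothelial genes, 3 rose at 13 d (1 without replicate 1 of 13 d 3% or of 13 d 21%), 0 passed at 48 h, and 0 had a called difference (1 with the replicate block, or without replicate 1 of 48 h 3% or replicate 2 of 13 d 3%). The 3 that rose were 33.3% of the list, beside 11.2% of all probe sets. Flt1, a VEGF receptor, measured 9.11, 7.42 and 9.11 at 13 d in 3% O2, against 7.23, 7.49 and 7.72 in 21% O2, and its difference of 0.96 ± 0.43 was 1.52 (adjusted p = 0.000348) without replicate 2 of 13 d 3%. Pecam1, the usual endothelial marker, lay between 6.30 and 6.46 in all 12 arrays. Of 3 erythroid and 4 choroid plexus genes, 0 had a called difference.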

How the data were processed

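RNA of each culture was hybridised to a whole-transcript mouse array, and per the labels the authors deposited normalized values, which lie on a log2 scale. The background correction, normalization method and software are not given in the sources used here, and these values do not show how far a signal lay above background. Of 28856 probe sets, 23410 had at least 1 gene symbol in the platform annotation (21789 with 1, 1621 with several) and were tested, and 5446 were unnamed here. Genes were named only from probe sets with 1 symbol, using the probe set with the highest mean over all arrays of the series.

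One limma model (R 4.3.3, limma 3.58.1, lmFit and eBayes) was fitted to all 24 arrays in 8 groups of 3, with 16 residual degrees of freedom, so that the spread was estimated over cortex and midbrain together. The contrast was the 13 d response minus the 48 h response in midbrain, with Benjamini-Hochberg adjustment over all 23410 probe sets, a threshold of 0.05 and 95% intervals. The fit was tested on simulated data for this contrast over 23410 probe sets with 50 changed at each size: 50% of changes of 0.5, 90% of 1, 98% of 2 and 90% of -1 were recovered, with 11 false calls. The simulated midbrain had no other oxygen effect, unpaired arrays and 1 normal spread per probe set in all groups. In the data 15.1% were called, and the root of the mean variance between arrays was 0.0819 in 13 d 21% and 0.139 in 48 h 21%. The simulated rates therefore do not describe the reported calls. Tables and plots were made with Python 3.11.15, pandas 2.3.3, numpy 2.4.6 and matplotlib 3.10.9.

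The comparison, the gene lists and the named panel were chosen with earlier results of these data known. Named by rule were the 10 largest differences in each direction, 6 opposite responses in each direction, the 6 genes higher and 4 lower at both times with the smallest difference, for each list the 2 genes with the lowest p, and the panel. All other genes, such as Pfkl, Kdm3a, Tnfrsf10b, Eda2r, Dll3, Spry1, Abca1 and Nqo1, were chosen after their values were seen. Replicate numbers stand in the labels. Deviations of same-numbered 3% and 21% arrays from their group means correlated at 0.12, 0.42 and 0.31 at 13 d and 0.12, 0.22 and 0.24 at 48 h, each over the limit of 0.1. On that ground arrays of one number were treated as pairs in the alternative fits with a block, and as unpaired in the fit reported. At 13 d, different-numbered arrays also exceeded the limit, with 0.16 for replicate 1 of 3% and 3 of 21% and 0.17 for replicate 3 of 3% and 1 of 21%, above the 0.12 of the pair numbered 1. This pairing comes from the data and not from the labels, and the fit reported has no block. Alternatives were all probe sets, brighter probe sets, quantile normalization, median centring, trended robust moderation, a fit of only the 12 midbrain arrays, weights per array, a block for the replicate number, and omission of each array.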

Additional observations from a re-analysis of the deposited data

Results flagged for a closer look

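The response to low oxygen differed between 13 d and 48 h by the test of the difference itself for 3536 probe sets in limma's fit. Among them, 12 named genes passed in opposite directions at the 2 times. Over all probe sets 11.2% rose and 12.7% fell at 13 d, and opposite calls among those passing at 48 h were near or below these shares. Higher in 3% O2 at 13 d and lower at 48 h were Phlda3 with a difference of 1.59, Ccng1 with 1.08, Gnaz with 0.90, Idi1 with 0.88, Yaf2 with 0.59 and Mecr with 0.55 (log2, 13 d minus 48 h). Lower at 13 d and higher at 48 h were Cd59a with -1.20, Cacng5 with -1.06, Nrsn1 with -1.05, Fut9 with -0.93, As3mt with -0.89 and Ndst3 with -0.82. For each of the 12, the 3 arrays in 3% O2 and the 3 in 21% O2 did not overlap at either time. The genes were chosen by their calls at both times, which makes this likely, so it is no separate support. With each array left out in turn, the difference of all 12 passed in each of 12 fits, the 13 d call was lost for Nrsn1 in 1 fit, and the 48 h call was lost for 9 of the 12 genes. It was lost in 3 fits each for Mecr and Cd59a, 5 each for Phlda3, Idi1 and Yaf2, 7 for Ndst3, 8 for Cacng5 and 9 each for Gnaz and Fut9, with an adjusted p of up to 0.165.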

How the results depend on the processing

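No called difference of a named gene reversed under any alternative run. Of the named genes whose difference was not called, several changed sign when 1 array was left out, among them Slc2a1 (-0.36 to 0.18), Egln3 (-0.14 to 0.42) and Ache (-0.13 to 0.22). The count of 3536 differences was 5708 with array weights, lay between 3223 and 3996 under the other planned settings except the block, and between 2738 and 3531 when 1 array was left out. The 13 d count of 5584 was 9494 with array weights and 4418 to 5874 with 1 array left out. The 48 h count of 279 was 163 among the 12738 brighter probe sets, where fewer were tested, and 422 after quantile normalization, and 141 to 311 with 1 array left out; beyond the brighter probe sets the cause was not tested. After median centring, the 48 h calls divided into 157 higher and 160 lower, beside 164 and 115. With the replicate number as a block, the pairing gave 4137 differences, 3292 of them shared with the 3536, 6052 calls at 13 d and 368 at 48 h. The block changed the call of 1 of 113 named genes, Pdgfra, and the list counts given above, and at 48 h it gave 1 call, where there had been 0, in the TGF-beta, Notch, other matrix and immediate early lists. A block in the 12 midbrain arrays alone, added after seeing the data, gave 4337 differences and 180 higher and 48 lower at 48 h, and gave a call to Aqp4, Bnip3, Gfap, Nr4a2 and Pdgfra. Calls lost under some setting were those of Col3a1, Epas1, Hes1, Mdm2 and Slc2a3. Array weights gave a call to Flt1, Hbb-y, Nr4a2, Pdk1, Slc16a3 and Slc6a3, and raised counts in most lists. Tyrobp and C1qa were called after quantile normalization or median centring, and Tyrobp with trended robust moderation. Leaving out 1 array gave calls to C1qa, Egfl7, Flt1, Hbb-y, Nr4a2, Pdk1, Slc16a3, Slc6a3 and Tyrobp. With 3 arrays a group, small responses are near the limit of detection.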
